A study of Mus musculus with 32 samples.

Results

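The hippocampus of young mice that lack NLRP3 was compared with that of young wild type mice by gene expression array. The comparison uses 7 of the 32 arrays of the series, 3 titled CIAS -/- young (replicates 1, 2 and 4) and 4 titled wild type young (replicates 1 to 4). CIAS is an older name of the gene Nlrp3, and the labels call these mice a knockout without describing the deleted part. All mice had the C57BL/6J background by the labels, ate chow from weaning and were killed at 1 month. The total RNA of a sample carried a biotin label and went onto 1 Illumina bead array. The other arrays are 6 old wild type, 6 old CIAS -/-, 3 young ASC -/-, 6 old ASC -/- and 4 young CASP11 -/-, on the same background and diet. They serve for direct comparison and entered the estimate of the spread in every test. Titles give the old mice 23 months, and the growth protocol gives a range that ends there. Nothing in the labels says that each sample is an animal of its own, so the p-values reflect how much these samples vary, and part of that may be technical.

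NLRP3 is a cytosolic sensor of cell damage and microbial products. Once triggered, it recruits the adaptor ASC, encoded by Pycard, and the protease caspase-1 into the inflammasome, which cuts pro-interleukin-1 beta, pro-interleukin-18 and gasdermin D. CASP11 is the murine caspase, encoded by Casp4, that senses lipopolysaccharide inside cells. In the brain NLRP3 is best known from microglia, where it needs a first signal that raises its own transcription.

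The 7 arrays were alike. Median raw signal ranged from 56.37 to 79.02, and 13273 to 13554 of 25697 probes had a detection p under 0.05. Log2 levels correlated at 0.993 to 0.995 among wild type arrays, at 0.993 to 0.996 among CIAS -/- arrays and at 0.991 to 0.995 between the groups. The markers of hippocampal subfields Prox1 and C1ql2 (dentate gyrus) and Fibcd1 and Wfs1 (CA1) were detected on all 7 arrays, as the tissue label states. Sex-linked transcripts were uneven: the Y-linked gene Eif2s3y read 4.41 and 4.66 in wild type replicates 3 and 4 and 9.42 to 9.81 on the other 5 arrays, and its part in the results was tested only by a fit with that level as a covariate.

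The arrays could not show the loss of the targeted gene. Both Nlrp3 probes were below background (detection p of 0.05 or more) on all 32 arrays. Their mean log2 levels were 4.39 and 4.40 in young wild type and 4.42 and 4.42 in young CIAS -/-. Whether these probes fall inside the deleted stretch was not known here, and the readings check no genotype. The adaptor gene Pycard was below background on all 32 arrays as well, at 4.67 ± 0.076 (SD, n = 4) in wild type and 4.63 ± 0.07 (n = 3) in CIAS -/-. Casp1, the effector protease, was detected on every array at 7.30 ± 0.27 (SD, n = 4) in wild type and 7.29 ± 0.26 (n = 3) in CIAS -/-. For Casp4 the detected probe read 5.45 ± 0.17 (SD, n = 4) and 5.49 ± 0.18 (n = 3). The values of the groups overlapped for both caspases.

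No gene differed between young CIAS -/- and young wild type hippocampus past the threshold. Of 11178 features tested with limma in 1 fit over all 32 arrays, 0 (0%) reached an adjusted p under 0.05. The smallest adjusted p was 0.065, and 9 features lay under 0.1. At an unadjusted p under 0.05 there were 866 features (7.75%), 416 higher (3.72%) and 450 lower (4.03%) in CIAS -/-. The 3 knockout values did not overlap the 4 wild type values for 585 features (5.23%) on the higher side and 521 (4.66%) on the lower, 9.89% in all. The count of 0 moved under several alternatives. A fit of the young arrays alone called 20 features and a fit that weights arrays by their quality called 52. The deposited normalized values and a strict filter on dim probes gave 7 each, and trended and robust variance gave 0. Leaving out 1 young array gave 0 to 3, and leaving out old wild type replicate 6 gave 13.

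The precision bounds how large a difference could have been missed. The median absolute log2 difference was 0.0857, and the 95% interval of a difference had a median half-width of 0.228. For 10209 features (91.3%) the whole interval lay within a change of 1.5-fold in either direction, and for 11028 (98.7%) within 2-fold. Only 23 features were higher and 23 lower by more than 1.5-fold in the estimate itself.

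**Figure D1:**
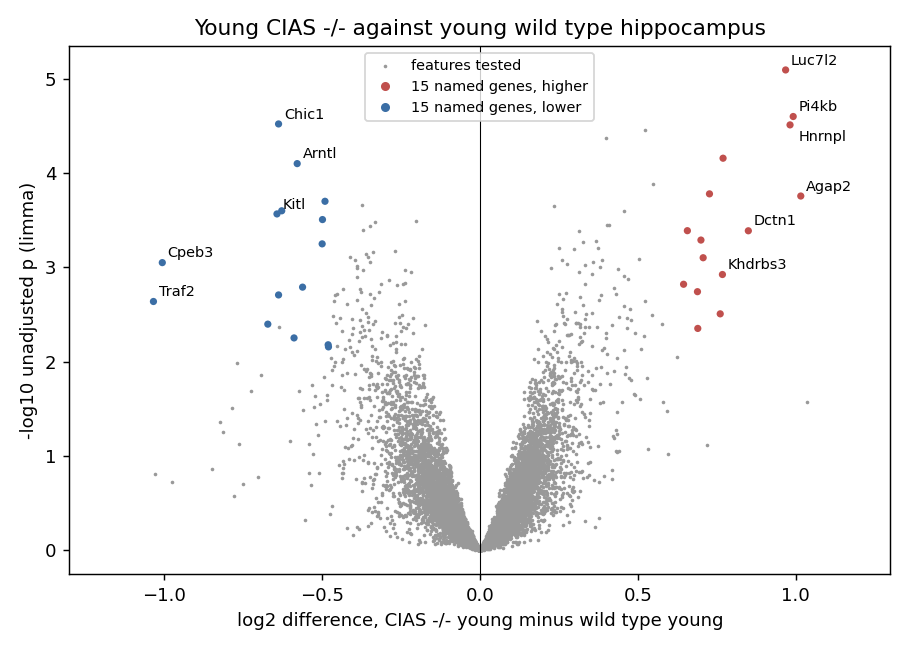
Each point is 1 of the features tested, with the log2 difference between young CIAS -/- (n = 3) and young wild type (n = 4) on the x axis and -log10 of the unadjusted limma p on the y axis. The coloured points are the 15 named genes in each direction, 3 features with larger differences lie outside the axis, and no point reaches an adjusted p under 0.05.

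Among genes with a symbol, non-overlapping groups and an unadjusted p under 0.01, Agap2, Pi4kb, Hnrnpl and Luc7l2 had the largest differences toward higher levels. None passed the test. These genes were named by size among those at an unadjusted p under 0.01 whose groups did not overlap, so their lack of overlap is part of the choice. Features without a symbol were not named by this rule. Of these the probe ILMN_2599514 had a larger difference than any named gene, with 5.23, 5.64, 5.42 and 5.74 in wild type and 6.68, 6.80 and 6.82 in CIAS -/- (difference 1.26, adjusted p = 0.065). Luc7l2, a component of the U1 splicing machinery, read 8.14, 8.52, 8.27 and 8.30 in wild type and 9.35, 9.18 and 9.30 in CIAS -/- on the log2 scale. Its difference was 0.97 (95% interval 0.60 to 1.33, adjusted p = 0.065). A further kept Luc7l2 probe differed by only 0.02, so the probes of this gene disagree. Pi4kb, a phosphatidylinositol 4-kinase of the Golgi, read 6.08, 6.45, 6.18 and 6.33 in wild type and 7.36, 7.26 and 7.13 in CIAS -/- (difference 0.99, adjusted p = 0.065). Hnrnpl, an RNA-binding regulator of splicing, read 9.31, 10.62, 10.13 and 10.32 in wild type and 10.99, 11.23 and 11.01 in CIAS -/- (difference 0.98, adjusted p = 0.065). For Hnrnpl the wild type values alone spanned more than the difference between the groups, with replicate 1 far below the rest. The GTPase gene Agap2 had the same form, with wild type replicate 1 at 6.84 and the other wild type arrays at 7.65 to 8.09, against 8.44 to 8.75 in CIAS -/- (difference 1.02, adjusted p = 0.163).

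Further genes in this direction were Dctn1, which encodes the large dynactin subunit, with a log2 difference of 0.85, and Nipsnap2, a mitochondrial protein gene, with 0.77 (adjusted p = 0.0972). Khsrp, whose product destabilises mRNAs, differed by 0.73, and Dlg4, which encodes the postsynaptic scaffold PSD-95, by 0.71. Dpysl3, a collapsin response mediator of growing axons, stood at 6.31 to 6.51 in wild type and at 7.00 to 7.19 in CIAS -/-. Cap1 (actin turnover), Gpx2 (a glutathione peroxidase), Zdhhc21 (a palmitoyltransferase) and Ggact differed by 0.65 to 0.76. Khdrbs3, a splicing regulator of neurons, read 7.67, 7.66, 7.89 and 7.61 in wild type and 8.80, 8.62 and 8.00 in CIAS -/- (difference 0.77, adjusted p = 0.219). Its 3 knockout values were spread more widely than the 4 wild type values, though all lay above them.

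Toward lower levels the largest differences by the same rule were in Traf2 and Cpeb3, and again none passed the test. Genes with overlapping groups were not eligible, such as Erdr1 at -1.03. Traf2, an adaptor of tumour necrosis factor receptors, read 5.94, 6.27, 5.62 and 6.47 in wild type and 5.11, 5.09 and 4.92 in CIAS -/- (difference -1.03, 95% interval -1.67 to -0.40, adjusted p = 0.271). Cpeb3, which controls translation of synaptic mRNAs, read 6.34, 6.29, 6.22 and 6.29 in wild type and 5.47, 5.33 and 5.04 in CIAS -/- (difference -1.01, adjusted p = 0.207). The wild type values of Cpeb3 lay close together and all 3 knockout values stood well below them. Chic1 had the smallest adjusted p in this direction. It read 6.32, 6.33, 6.75 and 6.64 in wild type and 6.05, 5.65 and 5.92 in CIAS -/- (difference -0.64, adjusted p = 0.065). Kitl, the ligand of the KIT receptor, read 5.76, 5.57, 5.47 and 5.40 in wild type and 4.99, 4.73 and 5.01 in CIAS -/- (difference -0.64, adjusted p = 0.164). Kitl was detected on only 4 of the 7 arrays, and its knockout values lay near the undetected Nlrp3 probes (4.42). Its other probe was too dim to be kept and differed by 0.00.

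Fbxl18, an F-box gene of protein ubiquitination, stood at 6.48 to 6.68 in wild type and at 5.90 to 5.91 in CIAS -/- (difference -0.67), and its other kept probe gave -0.55. For Zfp106 the tested and the other kept probe gave -0.59 and -0.56, and for Sec22c, a gene of transport between endoplasmic reticulum and Golgi, -0.48 and -0.43. Agreement between probes was poorer for Naa20, the catalytic subunit of the NatB acetyltransferase, where the tested probe gave -0.49 and the other kept probes -0.19 and -0.10. Fut9 (a fucosyltransferase), Cdc123 (initiation factor assembly), Nat14, Gpatch2l, Cdc42ep1 (a Cdc42 effector) and Sqor (sulfide oxidation) differed by -0.64 to -0.48. The median log2 difference over all features was 0.0047, which quantile normalization of the arrays holds near 0.

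**Figure D2:**
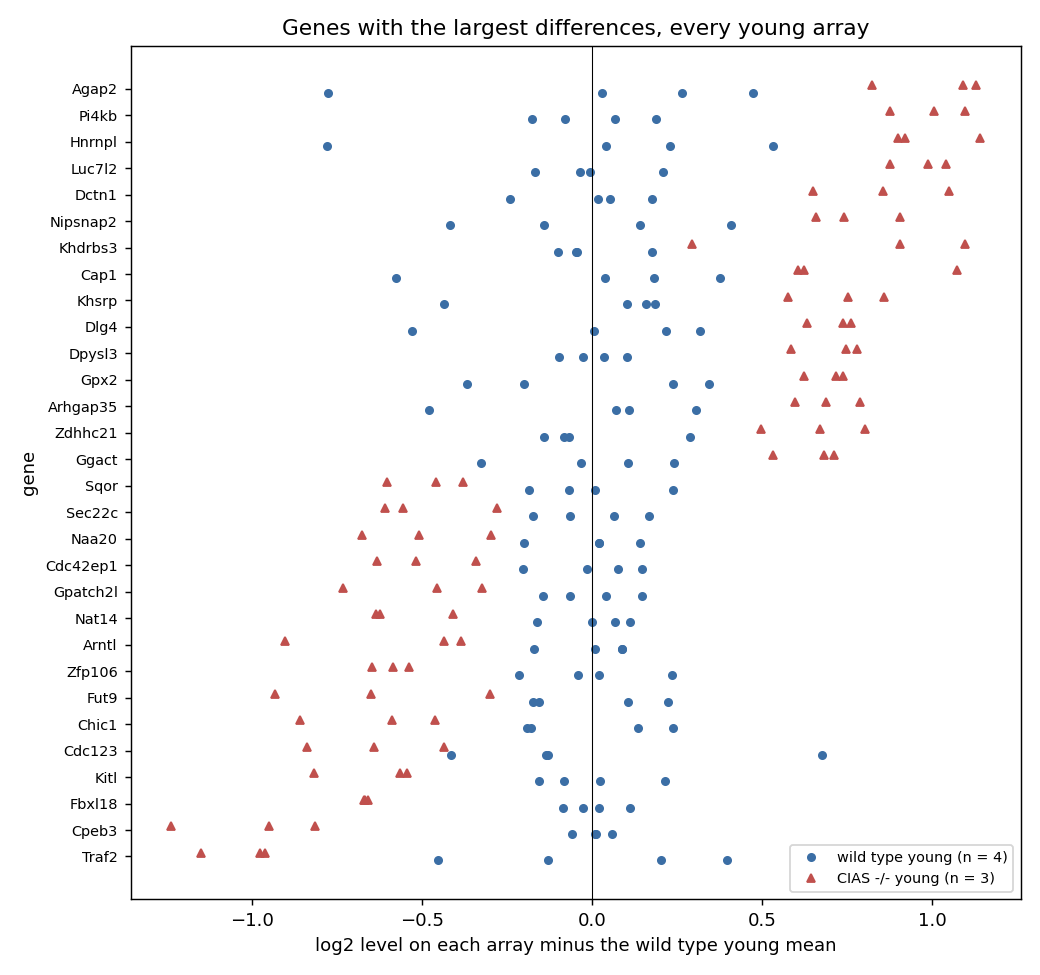
Log2 level on each young array minus the wild type young mean (x axis) for the 30 named genes (y axis), with circles for the 4 wild type arrays and triangles for the 3 CIAS -/- arrays. By the rule of choice no triangle overlaps the circles of its gene, and a single wild type array lies far below the rest for Agap2, Hnrnpl and Khsrp.

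Old arrays gave a measure of the same genotype difference in other samples. At the old age 764 features were called (6.83%), 329 higher (2.94%) and 435 lower (3.89%) in CIAS -/-, and 429 without CIAS -/- old replicate 6. Of the 30 named genes 11 were called there, 8 in the direction of the young difference and 3 in the opposite one. Called or not, 13 of the 30 (43.3%) had the same sign at both ages, against 53.2% of all features. Khdrbs3 rose in old CIAS -/- by 1.22 (adjusted p = 2.17e-05), from a mean of 7.63 in old wild type to 8.84. Kitl fell in old CIAS -/- by 1.03 (adjusted p = 5.42e-06), Cpeb3 by 1.33 (adjusted p = 0.000153) and Sec22c by 0.95 (adjusted p = 1.9e-05). Chic1 fell by 0.73 (adjusted p = 2.17e-05), Fbxl18 by 0.88 (adjusted p = 0.0011) and Zfp106 by 0.63 (adjusted p = 0.00957). All of these calls were kept without any single old array, whereas that of Fut9 (-0.41, adjusted p = 0.0246) was lost without old wild type replicate 1 (adjusted p = 0.0543) and old CIAS -/- replicates 1 (0.0634) and 6 (0.0703), and with the deposited normalized values (0.486). With only the groups compared in the fit, Zfp106 lost its call (adjusted p = 0.0851). The test of the difference between the ages did not pass for any of these 8 genes (adjusted p = 0.311 to 0.972). Mean levels in old ASC -/- were also below old wild type for Kitl (4.88 against 5.65), Cpeb3 (5.56 against 6.57) and Sec22c (7.48 against 8.09). The same held for Chic1, Fbxl18, Zfp106 and Fut9, while Khdrbs3 was at 7.82 against 7.63. Old ASC -/- was not tested against old wild type. Mean Kitl in old CIAS -/- was 4.62, near the level of the undetected Nlrp3 probes.

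Over all 764 features called in old mice, the young difference had the same sign for 441 (57.7%), against 53.2% of all features. The share was 280 of 435 (64.4%) for those lower in old CIAS -/- and 161 of 329 (48.9%) for those higher. Taken in the direction of the old change, the young difference had a median of 0.031, while the median size of the old change was 0.40. Some of the genes that fell most in old mice had smaller differences of the same sign at 1 month. Zbtb7a, a transcriptional repressor gene, fell by 2.51 in old CIAS -/- (adjusted p = 6.33e-06) and had a young difference of -0.82 (adjusted p = 0.622). The potassium channel gene Kcna1 fell by 2.10 in old CIAS -/- (adjusted p = 9.11e-07) and had a young difference of -0.77 (adjusted p = 0.441). Scn1a, a neuronal sodium channel gene, fell by 1.37 in old CIAS -/- (adjusted p = 0.000153), with -0.43 in young. For each of these 3 genes, picked as examples, the young knockout values all lay below the young wild type values, as for 4.66% of all features. The test of the difference between ages did not pass (adjusted p = 0.0742 to 0.228). Young ASC -/- was also below wild type for them (-0.51, -0.475 and -0.40). Old ASC -/- means were below old wild type as well (7.82 against 8.58, 6.88 against 8.00 and 9.33 against 10.02), which was not tested. Of other genes that fell most in old mice, Erdr1, Thsd4, Ddx6, Nsd1 and Slc24a2 (0.13 in young) had overlapping young groups, while Wdfy3 and Cpeb3 did not.

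**Figure D3:**
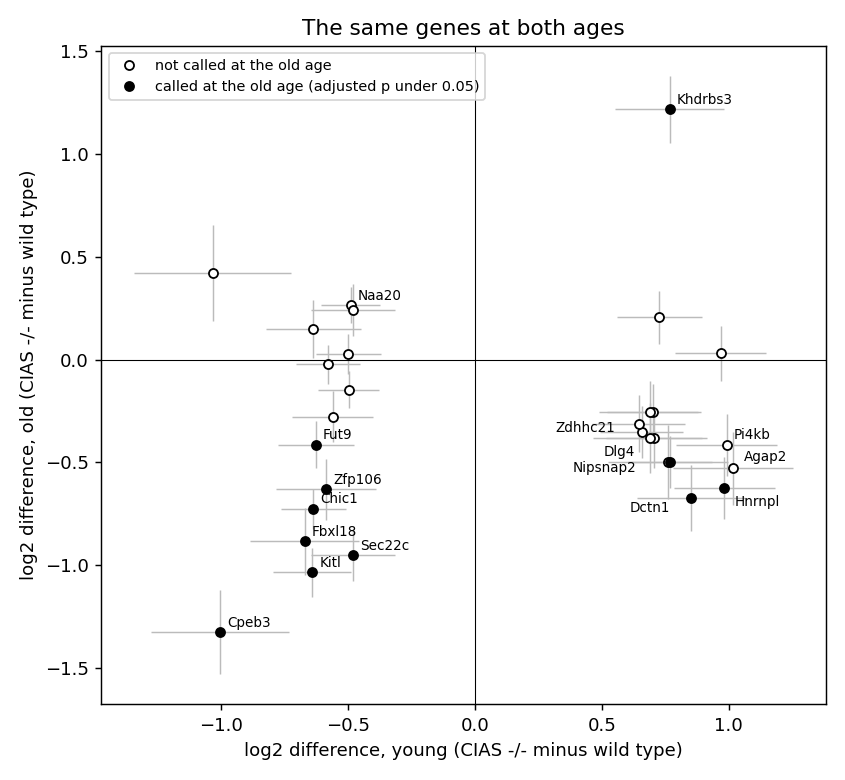
Log2 difference of CIAS -/- minus wild type in young (x axis, n = 3 and 4) and old mice (y axis, n = 6 and 6) for the 30 named genes, with bars of 1 standard error. Khdrbs3 is higher at both ages, Cpeb3, Kitl, Sec22c and 4 more called genes are lower at both, and Hnrnpl, Dctn1 and Nipsnap2 are higher in young and lower in old mice.

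The genotype difference itself differed between the ages for 42 features (0.376%), of which 29 had a positive difference in young and a negative one in old mice, 12 the reverse and 1 the same sign. Of the 30 named genes 8 were among them. These 30 were chosen for a large young difference, which is itself part of the tested difference, so that count is no independent result. Hnrnpl had 0.98 in young and -0.62 in old (difference between ages -1.61, adjusted p = 0.00412), and Nipsnap2 had 0.77 and -0.50 (-1.27, adjusted p = 0.00475). Pi4kb had 0.99 and -0.41 (-1.41, adjusted p = 0.00764), and Dctn1 0.85 and -0.67 (-1.52, adjusted p = 0.00764). These 4 calls were kept under every alternative run. The call of Agap2 (-1.54, adjusted p = 0.0171) was lost without CIAS -/- young replicate 4 (0.108), as was that of Naa20 (0.75, adjusted p = 0.0171, then 0.113). With only the groups compared in the fit, Agap2 (0.0574) and Zdhhc21 (0.0834) lost their calls, and Dlg4 did with no filter on dim probes (0.0571). Dlg4 (-1.09, adjusted p = 0.0306) lost its call without any of 7 arrays (adjusted p = 0.0508 to 0.126): young wild type replicates 1 and 4, old wild type replicates 1 and 2, CIAS -/- young replicates 2 and 4 and CIAS -/- old replicate 6. Zdhhc21 (-1.01, adjusted p = 0.0231) lost it without young wild type replicate 1, 3 or 4 or CIAS -/- young replicate 4 (0.0503 to 0.108). The count of 42 was 8 without CIAS -/- young replicate 4, 18 without wild type young replicate 1 or 4, 27 without replicate 3, 22 without CIAS -/- young replicate 2, 21 without old wild type replicate 2, 82 without CIAS -/- young replicate 1, 89 without old CIAS -/- replicate 5 and 140 without old wild type replicate 6. The last array had a quality weight of 0.126, and all 42 features were called without it. It also stood apart in the dentate marker C1ql2, at 6.84 against 11.59 to 12.11 on the other old wild type arrays, and in the CA1 marker Fibcd1, at 8.79 against 11.58 to 11.98. Their part in the result was not tested beyond leaving the array out, which gave 786 calls in the old comparison.

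For Hnrnpl and Pi4kb the young wild type mean was the lowest of all 7 groups. The same held for Agap2, Luc7l2, Dctn1, Nipsnap2 and Dlg4, among others of the named genes, but not for Khdrbs3. Mean log2 Hnrnpl was 10.09 in young wild type, 11.23 in old wild type, 11.15 and 10.93 in young and old ASC -/-, 11.08 and 10.60 in young and old CIAS -/- and 11.02 in young CASP11 -/-. Pi4kb had a mean of 6.26 in young wild type and of 6.82 to 7.25 in the other 6 groups. The young comparisons of the 3 knockouts share the 4 wild type arrays, so their values are not independent. Of the 30 named genes 30 had the same sign in ASC -/- as in CIAS -/-, and 29 had it in CASP11 -/-. These genes were chosen by their difference from the same wild type arrays. That choice favours the same sign in every knockout, and the share over all features was not counted. With limma Hnrnpl was called against young wild type in ASC -/- (1.055, adjusted p = 0.0468) and in CASP11 -/- (0.925, adjusted p = 0.00397). For Pi4kb the differences from young wild type were 0.99 in CIAS -/-, 0.95 in ASC -/- and 0.97 in CASP11 -/-. For Chic1 they were -0.64, -0.68 and -0.86, and for Kitl -0.64, -0.40 and -1.06. Khdrbs3 gave 0.77 in CIAS -/-, 0.22 in ASC -/- and 0.08 in CASP11 -/-.

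**Figure D4:**
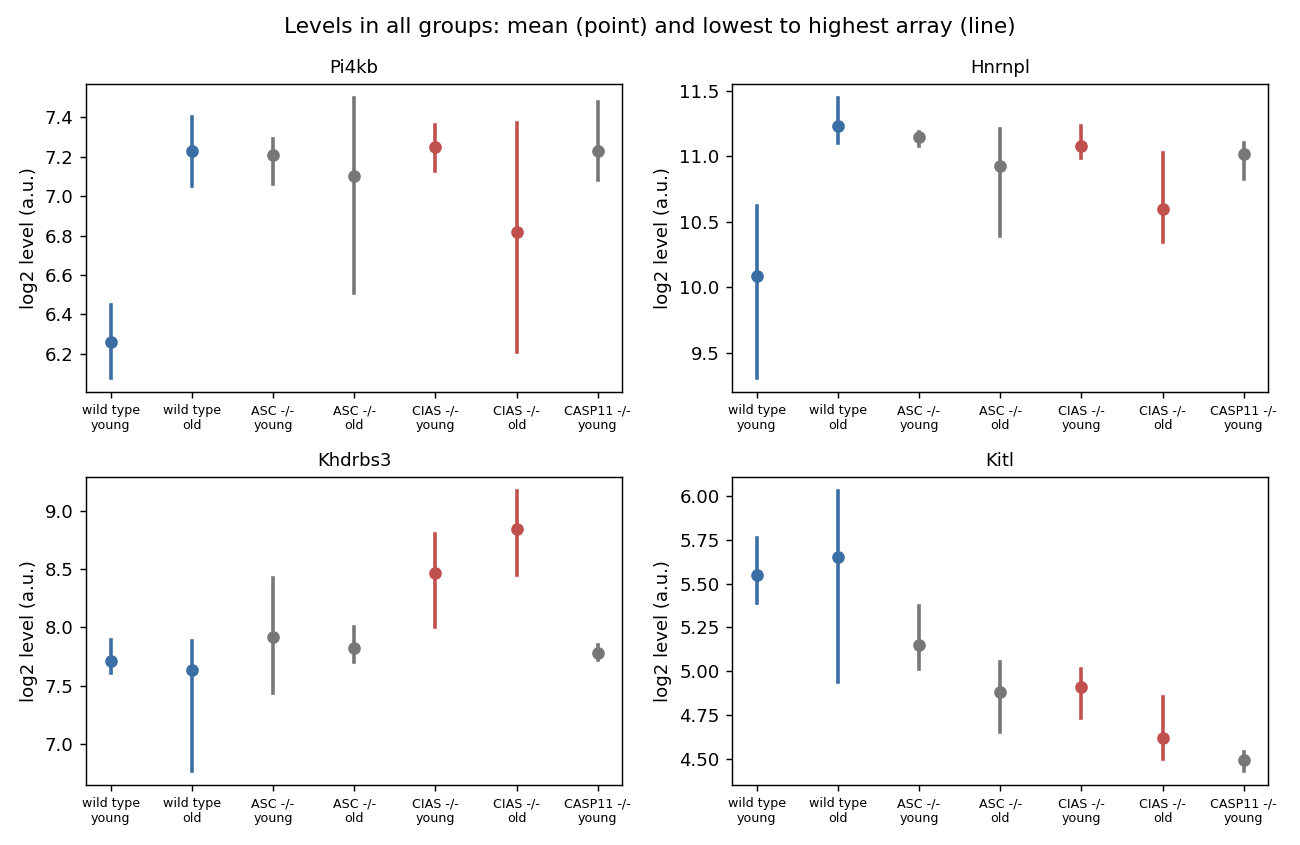
Log2 level of Pi4kb, Hnrnpl, Khdrbs3 and Kitl in all 7 groups, with points for the mean and lines from the lowest to the highest array. The young wild type mean is the lowest of all for Pi4kb and Hnrnpl, both CIAS -/- groups are the highest for Khdrbs3, and both wild type groups are the highest for Kitl.

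Direct tests between knockouts leave the wild type arrays out of the contrast. Young CIAS -/- against young ASC -/- gave 0 called features (0%) with limma and 375 at an unadjusted p under 0.05 (3.35%), and 0 under every alternative run. Khdrbs3 was higher than in ASC -/- by 0.55 and higher than in CASP11 -/- by 0.69 (adjusted p = 1 and 0.116), so a difference from the other knockouts did not pass. Young CIAS -/- against young CASP11 -/- gave 115 called features (1.03%), 83 higher (0.743%) and 32 lower (0.286%) in CIAS -/-, and none of the 30 named genes was among them. Zbtb7a was higher in CIAS -/- by 3.00 (adjusted p = 0.000193), Ppargc1a, a coactivator of mitochondrial genes, by 1.67 (adjusted p = 0.00382) and Scn1a by 1.64 (adjusted p = 0.00429). Rbm3, a cold-inducible RNA-binding protein gene, had a lower level in CIAS -/- (-0.89, adjusted p = 0.00429). Against young wild type, CASP11 -/- differed by -3.8 for Zbtb7a, -2.0 for Ppargc1a, -2.1 for Scn1a and 1.3 for Rbm3. CIAS -/- differed from young wild type in the same directions by less, at -0.82, -0.37, -0.43 and 0.43, and none of these passed. For Rbm3 the other kept probes gave -0.20 and 0.08 in that comparison, so its probes disagree. The 4 calls between CIAS -/- and CASP11 -/- held without any single array of the 2 groups. The count of 115 fell to 14 without CIAS -/- young replicate 4 and to 30 to 57 without any other array of the 2 groups. It was 181 without old wild type replicate 6 and 59 with the sex-linked level as a covariate.

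No measured gene of the inflammasome or of interleukin-1 signalling passed the test. Of 32 listed genes 13 were measured, 0 were called, and their median log2 difference was -0.045 against 0.0047 over all features. At an unadjusted p under 0.05 there were 1 higher and 1 lower (15.4% against 7.75% of all features). Panx1, a channel that releases ATP and can act ahead of NLRP3, read 7.73, 7.49, 7.86 and 7.69 in wild type and 8.02, 8.00 and 8.11 in CIAS -/- (difference 0.35, unadjusted p = 0.0043, adjusted p = 0.316). All 3 knockout values were above the wild type values, as for 5.23% of all features. Brcc3, a deubiquitinase of NLRP3, had a difference of -0.24 with overlapping groups (adjusted p = 0.433). The cytokine genes Il1b and Il18 had differences of -0.16 and -0.11, and the ATP receptor gene P2rx4 one of -0.14. For 12 of the 13 genes the 95% interval lay within 1.5-fold either way.

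Other immune lists held 0 called genes as well. This covered 15 genes of NF-kB and cytokines (median 0.00), 16 interferon-stimulated genes (-0.02), 8 complement genes (0.05) and 14 of MHC class I and II (-0.04). Tnfaip3, a brake on NF-kB, had a difference of -0.21 (adjusted p = 0.769), Stat2, of interferon signalling, 0.22 (adjusted p = 0.705), and Tap2, a peptide transporter of antigen presentation, 0.24 (adjusted p = 0.739). Of 20 homeostatic microglia markers 0 were called (median 0.02), and their mean log2 level ranged from 7.55 to 7.73 in wild type and from 7.59 to 7.72 in CIAS -/-. In a bulk tissue fewer cells of a type and less RNA per cell cannot be told apart. The fractalkine receptor gene Cx3cr1 read 9.32, 9.18, 9.24 and 9.21 in wild type and 9.02, 8.84 and 9.06 in CIAS -/- (difference -0.27, 95% interval -0.63 to 0.09). It fell by 0.92 in old CIAS -/- (adjusted p = 6.33e-05), and the difference between ages did not pass (adjusted p = 0.166). Mean Cx3cr1 was 9.01 in old ASC -/- and 9.57 in old wild type.

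The mean levels of the marker lists of other cells overlapped between the groups, though some single markers did not. Of 18 myelin genes 0 were called (median -0.06), and their mean level was 9.54 to 9.96 in wild type and 9.62 to 9.90 in CIAS -/-. The myelin surface gene Mog differed by -0.16 in young mice and fell by 0.72 in old ones (adjusted p = 0.00571, and 0.0701 with only the groups compared in the fit). The difference between ages did not pass (adjusted p = 0.362). Mean Mog was 8.03 in old ASC -/- and 8.71 in old wild type. Astrocyte markers (18 measured, 0 called) averaged 9.13 to 9.21 and 9.12 to 9.16, with 3 of 18 not overlapping (16.7% against 9.89% of all features). Of 8 blood markers 2 did not overlap (25%), both lower in CIAS -/-, and 0 were called. Among the astrocyte markers 13 of 18 had values below 0 (median -0.06). Mlc1 and Fgfr3 went the other way, with differences of 0.37 and 0.39 and no overlap, and Acsbg1 had -0.24 (adjusted p = 0.50 to 0.538). In old CIAS -/- Fgfr3 was lower by 0.41 (limma adjusted p = 0.0461), a call lost under 12 of 23 alternatives. Choroid plexus and ependyma genes were the least even, at 8.07 to 8.46 in wild type and 7.49 to 8.90 in CIAS -/-. The choroid gene Kl read 9.14, 8.55 and 10.29 in the CIAS -/- samples and 9.56 to 10.11 in wild type, and the knockout samples differed among themselves more than the wild type samples did. Its part in other results was not tested.

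Immediate early genes, which neurons switch on within minutes of activity, leaned to lower levels without passing. Of 28 listed genes 20 were measured and 0 called, 15 had values below 0, and the median log2 difference was -0.25. At an unadjusted p under 0.05 there were 4, all lower (20.0% against 7.75% of all features). Fos read 9.62, 9.90, 8.70 and 9.47 in wild type and 8.94, 8.49 and 8.49 in CIAS -/- (difference -0.78, adjusted p = 0.564). Wild type replicate 3 fell within the knockout range, and the same array was low for Npas4, at 5.80 against 6.92 to 7.23 in the other wild type arrays and 5.80 to 6.05 in CIAS -/-. Arc, needed for lasting synaptic change, had a difference of -0.53 and Egr1 one of -0.38. The phosphatase genes Dusp1 and Dusp6 had -0.48 and -0.26, and Jun had 0.36. In old mice the median of the same list was -0.087, with 0 called.

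Several genes of the circadian clock had differences of opposite sign, and none passed the test. The clock runs on BMAL1, encoded by Arntl, and CLOCK, which switch on the Per and Cry genes that then inhibit them. ROR factors activate and REV-ERB factors repress Arntl, while DBP and TEF activate and NFIL3 represses genes through the D-box. Of 18 listed genes 15 were measured and 0 called, with a median log2 difference of 0.045. An unadjusted p under 0.05 was reached by 4 (26.7% against 7.75% of all features). Arntl read 9.21, 8.95, 9.21 and 9.13 in wild type and 8.73, 8.68 and 8.22 in CIAS -/- (difference -0.58, 95% interval -0.84 to -0.32, adjusted p = 0.0986). Nfil3 read 8.57, 8.68, 8.52 and 8.46 in wild type and 8.37, 8.17 and 8.20 in CIAS -/- (difference -0.31, adjusted p = 0.242). The groups of both genes did not overlap. Per3 read 5.23, 5.58, 5.60 and 5.95 in wild type and 5.99, 6.20 and 5.94 in CIAS -/-, with slight overlap (difference 0.46, adjusted p = 0.286). Rorb had -0.33 with overlap, and Dbp had 0.26 with 10.39 to 10.54 in wild type and 10.55 to 10.88 in CIAS -/-. Per2 had -0.03. For Clock the tested probe gave -0.09 and another kept probe -0.54, so its probes disagree. In old mice Arntl, Nfil3, Per3 and Dbp had differences of -0.02, 0.11, -0.07 and 0.01. Arntl was also lower than in young wild type in young CASP11 -/- (-0.475, limma adjusted p = 0.0231) and, without passing, in young ASC -/- (-0.20). The labels used here give no hour of death.

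The promoters of 2 of these genes are shown because they hold letters that match motifs of clock factors. The D-box was searched as TTATGNAA and only the core of the ROR element as AGGTCA. Both strands were searched in the 250 bases before the start in RefSeq (GRCm38.p6). The windows lie at chr4:151044666-151044915 for Per3 and chr13:52981040-52981289 for Nfil3, both on the minus strand and written in gene orientation. Capitals mark the matches.
Per3: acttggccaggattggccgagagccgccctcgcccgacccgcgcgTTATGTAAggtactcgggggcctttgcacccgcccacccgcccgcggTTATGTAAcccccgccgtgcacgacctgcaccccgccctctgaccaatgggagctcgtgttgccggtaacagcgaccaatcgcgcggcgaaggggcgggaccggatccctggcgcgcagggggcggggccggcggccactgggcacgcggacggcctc
Nfil3: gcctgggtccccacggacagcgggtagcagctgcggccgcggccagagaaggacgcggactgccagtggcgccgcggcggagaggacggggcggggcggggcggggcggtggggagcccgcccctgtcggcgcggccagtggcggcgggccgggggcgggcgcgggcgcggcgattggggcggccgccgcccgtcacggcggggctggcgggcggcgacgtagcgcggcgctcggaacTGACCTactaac
Per3 held 2 D-box matches, a motif present in 3.07% of 32851 such windows. Nfil3 held 1 match to the core AGGTCA on the opposite strand, present in 14.0% of windows, and the full ROR element was not searched. The Arntl window held neither, nor the E-box CACGTG (6.02% of windows). A match is a description of letters and no evidence that a factor binds there.

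**Figure D5:**
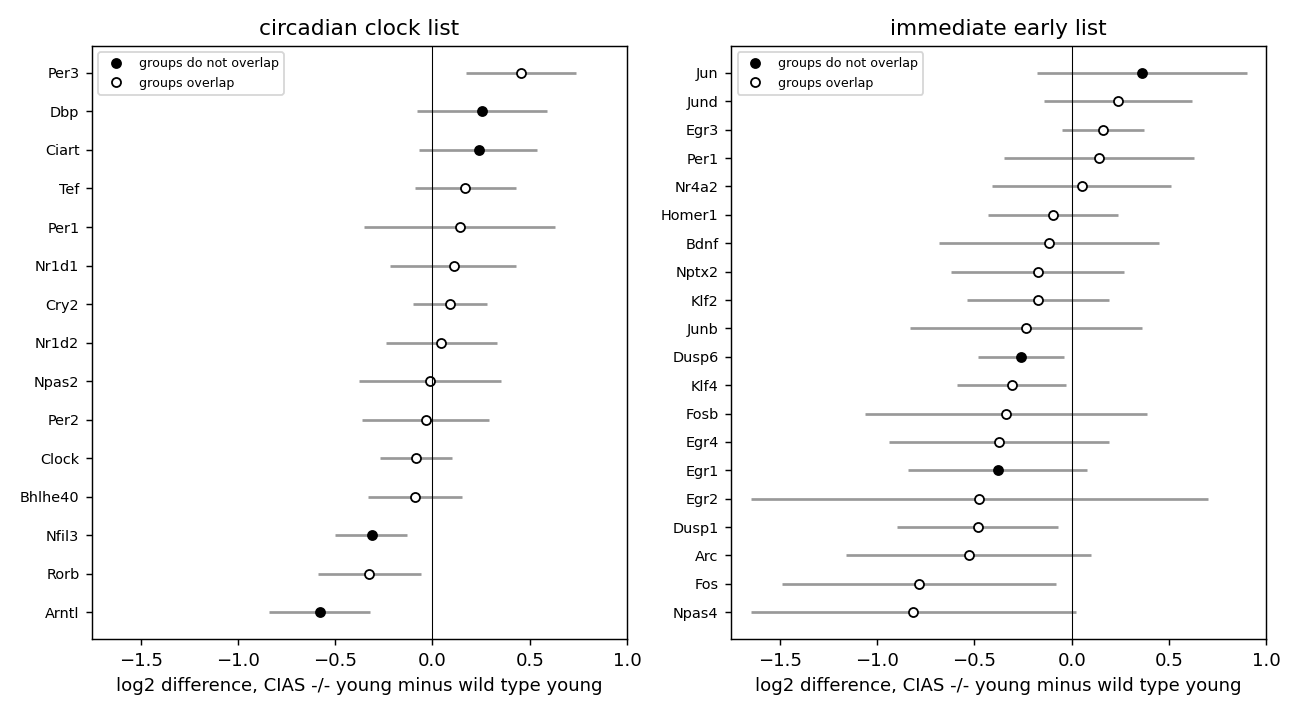
Log2 difference between young CIAS -/- and young wild type (x axis) for the measured genes of the circadian clock list (left) and the immediate early list (right), with 95% intervals from limma. Filled points mark genes whose 3 knockout and 4 wild type values do not overlap, and Arntl and Fos lie at -0.58 and -0.78.

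Lists of neuronal and metabolic genes held 0 called genes, and some lay off the centre of all features. Cortical layer genes (12 measured) had a median of -0.13. Of 21 ribosomal protein genes 17 had values below 0 (median -0.08), and 23.8% did not overlap between the groups, against 9.89% of all features. Of 19 genes of neurogenesis and immature neurons 0 were called, and Dpysl3 was the only one below an unadjusted p of 0.05. Synaptic vesicle genes (18 measured, median 0.03, 22.2% not overlapping) included the complexin gene Cplx2 at 0.72, with 7.37 to 7.79 in wild type and 8.02 to 8.46 in CIAS -/- (adjusted p = 0.70). Gabbr1, a subunit of the GABA-B receptor, had a difference of 0.53 with no overlap (adjusted p = 0.468). Among 27 genes of oxidative phosphorylation the median was -0.02. The complex I gene Ndufb8 read 12.70, 12.74, 12.79 and 12.78 in wild type and 12.50, 12.60 and 12.55 in CIAS -/- (difference -0.20, adjusted p = 0.164). In the lysosome list Grn, which encodes progranulin, stood at 8.28 to 8.59 and 8.70 to 8.88 (difference 0.30, adjusted p = 0.204). The receptor gene Igf2r had 0.31 with no overlap (adjusted p = 0.164) and the angiogenic factor gene Vegfa -0.37 with no overlap (adjusted p = 0.462). Among 21 heat shock and unfolded protein genes, 4 were lower and 1 higher at an unadjusted p under 0.05. That was 23.8% of the list against 7.75% of all features. These genes were Hspe1 (-0.30), Hsph1 (-0.19), Pdia6 (-0.31) and Dnajb1 (-0.19) on the lower side, and Calr (0.42) on the higher. None of the 35 lists held a called gene.

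Genes that lie beside Nlrp3 on chromosome 11 were examined because a targeted locus can carry neighbouring alleles of another strain. Of the 25 tested genes on each side by gene order, 4 of 50 (8%) had an unadjusted p under 0.05, against 7.75% of all features, and 0 were called. Of the 100 on each side it was 14 of 200 (7%). The largest absolute log2 difference was 0.32 among the 50 and 0.71 among the 200. The latter was that of Dlg4, a named gene that lies 99 tested genes from Nlrp3. Around Pycard on chromosome 7, which is not the targeted locus of these mice, the shares were 12% and 9.5%.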

How the data were processed

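Hippocampal RNA was measured on 32 bead arrays. Per the file headers, the authors deposited the raw, linear intensity of each probe, not yet made comparable across arrays, and a detection p-value beside each signal. GenomeStudio appears in the submitters' processing notes without a version. A table of normalized intensity was also deposited. How it was made is unknown here, and it entered only as an alternative, on a log2 scale with a floor of 16.

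Background correction and quantile normalization used neqc of limma 3.58.1 in R 4.3.3 with an offset of 16. Levels are thus log2 intensity with no length scale and are compared only within a probe. Probes with a detection p under 0.05 on at least 3 arrays were kept (14745 of 25697). The platform annotation gave 1 symbol for 23978 probes, several for 0 and none for 1719, and 23962 were found in the mouse gene table. Each gene was represented by its probe of highest mean, which left 11178 features, 10308 of them with a symbol. All 32 arrays entered 1 fit of 7 group means (25 residual and 4.087 prior degrees of freedom). Contrasts were 2-sided, adjusted by Benjamini-Hochberg and called at adjusted p under 0.05. The code was tested on simulated data with known changes. The number of arrays limits the precision.

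Named genes were Nlrp3, Pycard, Casp1 and Casp4, the 15 with the largest differences each way (none was called, so the list was filled from features at unadjusted p under 0.01 whose groups did not overlap, leaving out features without a symbol), and up to 4 members of each of 35 lists by smallest adjusted p. The members and lists were chosen with earlier results of these data known. Further list members, the genes of the CASP11 comparison and the old-age examples were chosen after their values were seen. Lists were described by counts and medians and not tested. Alternatives covered normalization, filters, samples in the fit, array weights, variance estimation, a sex-linked covariate, the replicate number as a block and leaving out arrays.

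Same-numbered young samples did not deviate together (correlations of -0.12, -0.14 and -0.18 for numbers 1, 2 and 4), so the numbers were not treated as pairs. No 2 arrays shared more than 1 identical probe reading across the table.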

Additional observations from a re-analysis of the deposited data

Results flagged for a closer look

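Chance sets apart about 1 in 20 groups of this size. Among the 4 young wild type arrays, 1 array lay far from the other 3 for 6 of the 101 genes looked at, so the count is close to that share. They were Khsrp in replicate 1 (log2 level 6.56), Mog in replicate 1 (8.47), P2ry13, a microglial receptor gene, in replicate 1 (7.95), Calr in replicate 2 (7.79), Il33, a cytokine gene of the interleukin-1 family, in replicate 2 (9.03) and Kl in replicate 2 (10.11).

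The effect of the genotype differed between ages by its own limma test for 11 of the genes looked at. Those among the 30 named genes were chosen for a large young difference, which enters this test. As the old effect minus the young effect on the log2 scale, the values were -1.54 for Agap2, -1.41 for Pi4kb, -1.61 for Hnrnpl, -1.52 for Dctn1, -1.27 for Nipsnap2, -1.09 for Dlg4 and -1.01 for Zdhhc21. Usp45, a deubiquitinase gene, had -1.05 and Exoc4, of the exocyst, -0.97. Naa20 had 0.75 and Ndufb8 0.27, and the call of Ndufb8 (adjusted p = 0.0424) was lost under 19 of 30 alternatives.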

How the results depend on the processing

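The count of features called between young CIAS -/- and young wild type was 0. It became 7 with the deposited normalized values, 7 with a strict filter on dim probes, 7 when only the groups compared entered the fit, 20 with only the young arrays and 52 with array weights. It ranged from 0 to 13 when single arrays were left out, with 3 without young wild type replicate 2 and 13 without old wild type replicate 6. Luc7l2 was called under 7 of these settings, Pi4kb and the probe ILMN_2599514 under 6 each, Chic1 under 5 and Hnrnpl under 4. The old comparison, with 764, had 316 with only the groups compared, 162 at a change of at least 1.5-fold, and 429 to 786 without single arrays. The difference between ages, with 42, had 17 with only the groups compared, 265 with array weights and 8 to 140 without single arrays. The comparison with CASP11 -/-, with 115, had 499 with only the groups compared, 411 with only the young arrays, 59 with the sex-linked covariate, 752 with array weights, 66 at a change of at least 1.5-fold and 14 to 181 without single arrays. The comparison with ASC -/- had 0 under every alternative run, and 375 features at an unadjusted p under 0.05.

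With the replicate number as a block the young comparison again had 0 calls, the old one 777, the difference between ages 41 and the comparison with CASP11 -/- 97. The numbers did not pair the samples.

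Over 101 gene results of the young comparison, 1948 of 2012 alternative values kept their direction and side of the threshold, 55 passed it and 9 changed sign. All 9 were of genes near 0. For Casp1 (-0.002) the value became 0.045 with the sex-linked covariate and 0.083 with array weights, and ranged from -0.14 to 0.131 without single arrays (0.016 and 0.118 without CIAS -/- young replicate 1 or 4). For Casp4 (0.039) it became -0.021 with array weights and ranged from -0.032 to 0.142 without single arrays (-0.013 and -0.012 without CIAS -/- young replicate 1 or 4). The cause was not tested.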
